A study of Homo sapiens with 15 samples.

Results

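KO-3 and KO-4 are 2 clones of the human colon cancer cell line HCT116, both labelled bktRNA1-/-, and they were set directly against each other with 3 RNA-seq libraries each. The series holds 15 libraries, of the wild-type line and 4 such clones, and the wild type was not used here. An intron was a member if it was listed for both clones at the same coordinates and strand and its retained and its spliced reads each averaged 10 or more over the 6 libraries, which left 23461 of the 106664 introns listed for either clone. The spliced reads of these introns were also summed per gene, and 5917 genes with a mean of at least 50 reads were tested. Both clones carry the same stated genotype, were grown in the same medium and were sequenced as polyA RNA from 3 independent experiments. Each is a single clone, so a difference between them cannot be assigned to bktRNA1, which both lack by their labels, and everything by which one clone can differ from another cannot be told apart. The labels do not say what bktRNA1 is, and its level was not analysed here.

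An intron is retained when the mature, polyadenylated RNA still carries it. Most human introns are removed by the major spliceosome, and a small class with other splice signals (U12-type introns) is removed by the minor spliceosome. Retained introns can hold transcripts in the nucleus or lead to their decay, and introns of splicing factor and snoRNA host genes are known examples. Reads over an exon-intron boundary count as retained here and reads that join the flanking exons count as spliced. The retention level is the share of retained reads after division by effective length. Where another exon lies inside an intron, transcripts that splice to that exon give no read that joins the flanking exons. An exon that spans a boundary of the intron gives reads that count as retained. Such a level therefore also moves with exon or transcript choice.

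Both ends of the intron could be read from annotated transcripts (GENCODE 29, GRCh38) for 4 of the 24 introns named for the size of their difference. They are shown because they mark where these introns are cut, and the retained share of each differs between the clones as given below, though both clones spliced most of these reads. Capitals mark the first 2 and the last 2 bases of the intron.
PHB intron 6 start: GTaagatcct
PHB intron 6 end: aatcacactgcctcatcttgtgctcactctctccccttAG
SUN1 intron 10 start: GTaagagggt
SUN1 intron 10 end: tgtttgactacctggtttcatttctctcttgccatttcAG
CDH3 intron 1 start: GTactccaca
CDH3 intron 1 end: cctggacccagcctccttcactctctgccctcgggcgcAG
SEC31A intron 23 start: GTaagtagtg
SEC31A intron 23 end: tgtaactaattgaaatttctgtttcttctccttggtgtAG
All 4 open with GT, close with AG and were of U2-type by the rule given below. The introns lie at chr17:49406855-49409041 (PHB, minus strand), chr7:852953-853408 (SUN1, plus strand), chr16:68645425-68645635 (CDH3, plus strand) and chr4:82842482-82844385 (SEC31A, minus strand), each in the coding part of its transcript.

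Junction reads over the introns listed for both clones came to 33112753, 32110598 and 27797912 in the KO-3 libraries and to 33106113, 32614601 and 30298767 in the KO-4 libraries. Libraries of a clone were more alike than libraries of different clones, with a Pearson r across genes of 0.994 to 0.996 within clones and 0.972 to 0.980 between them (log2 spliced reads, 6 pairs within and 9 between). The keratin genes KRT8 and KRT18, markers of the simple epithelium that the line comes from, were read in all 6 libraries and are given with the epithelial genes below. The share of retained reads over the member introns was 12.01, 11.97 and 11.66% in the KO-3 libraries, against 12.76, 12.93 and 12.71% in the KO-4 libraries. The typical intron was thus slightly less retained in every KO-3 library, with a median log2 odds of -2.50, -2.60 and -2.69 in KO-3, against -2.49, -2.40 and -2.46 in KO-4. The groups did not overlap (exact two-sided permutation test p = 0.1, the smallest p that 3 against 3 libraries allow). Over all introns the median difference in log2 odds was -0.15, and every difference below is given without correction for it unless stated.

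Retention differed between the clones at 946 introns (4.03% of those tested), and most of these were less retained in KO-3. By a quasi-binomial test with Benjamini-Hochberg adjustment over all introns, 266 introns (1.13% of those tested) were higher in KO-3 and 680 (2.90%) were lower. In percentage points, 114 of the higher and 182 of the lower introns differed by at least 10. The 3 levels of each clone did not overlap in 250 of the higher and 652 of the lower introns, where 20.7% of all introns tested had levels without overlap. When each library was centred on its median intron, the split turned to 438 higher and 313 lower, so the split of calls depends on whether the small shift of the typical intron is kept. The higher introns lay in 212 genes and the lower ones in 484, with 23 genes holding both. Without the KO-4 library listed 1st, the counts were 135 higher and 353 lower, and without the one listed 2nd 170 and 377. Without the KO-3 library listed 2nd they were 166 and 402, and without the one listed 3rd 209 and 385.

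**Figure D1:**
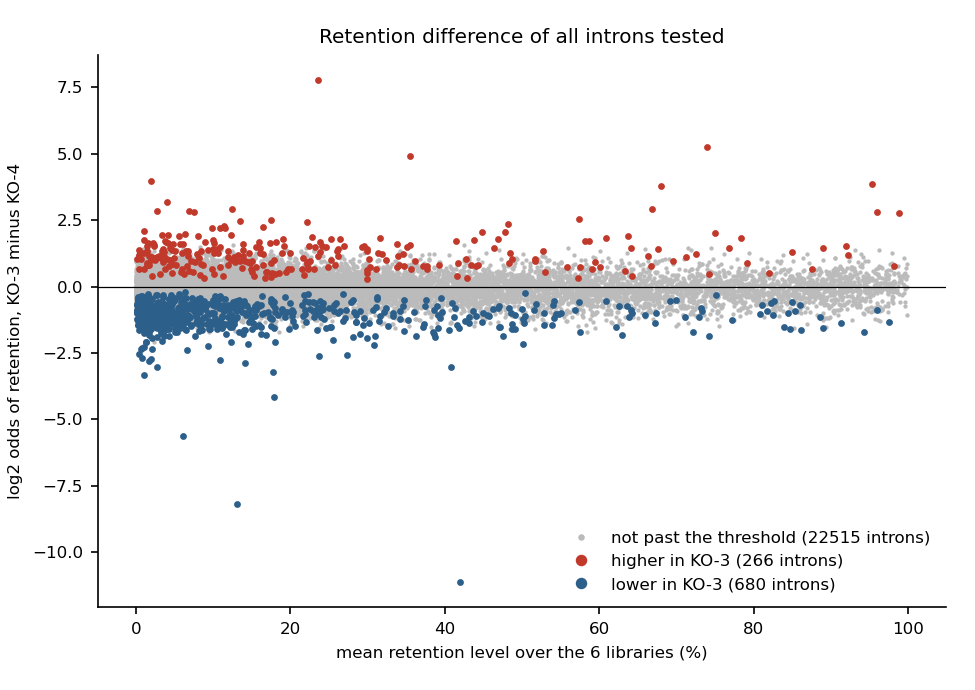
The difference in the log2 odds of retention (KO-3 minus KO-4) of each intron tested is plotted against its mean level in percent over the 6 libraries. The 266 introns higher and the 680 introns lower in KO-3 spread over the whole range of levels, and a few introns stand far from the rest in either direction.

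Introns higher in KO-3 were longer than the others and more often enclosed an annotated exon. Their median length was 1019 nt, against 546.5 nt for introns lower in KO-3 and 701 nt for introns with no call. An annotated exon lay inside 65.8% of the higher introns, 55.1% of the lower and 52.9% of those with no call. Introns of at most 150 nt made up 23.3, 8.82 and 15.6% of these groups, so the higher group held both more long and more very short introns. Of the introns lower in KO-3, 303 lay in genes called higher, 156 in genes called lower and 206 in genes with no call. Among all genes tested 24.2% were called higher and 24.8% lower. These are shares of genes, and a gene can hold many called introns. The share of all tested introns in such genes was not analysed. For introns higher in KO-3 the order turned round, with 42 in genes called higher, 151 in genes called lower and 67 with no call. The remaining 21 called introns lay in genes under the read minimum. Spliced reads enter both measures, so the 2 are not independent.

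Among the 12 introns with the largest rise in KO-3, 8 enclosed an annotated exon. Intron 4 of SESTD1 (chr2:179172234-179176447), a gene for a phospholipid-binding protein with a spectrin domain, had retention levels of 38.6, 39.4 and 62.5% in the KO-3 libraries, against 0, 1.205 and 0% in the KO-4 libraries. Nearly all KO-4 reads were spliced while KO-3 held many of both kinds, a log2 odds difference of 7.76 (SE 1.88, adjusted p = 5.9e-17). Intron 9 of PHIP, whose product is a chromatin-binding adaptor of a ubiquitin ligase, reached 69.05, 56.2 and 70.6% in the KO-3 libraries, against 4.85, 5.88 and 6.52% in the KO-4 libraries. This intron (chr6:78958601-78961689) held no annotated exon and was mostly retained in KO-3 and mostly spliced in KO-4, a difference of 4.90 (SE 0.57, adjusted p = 7.5e-19). JKAMP encodes a membrane protein of the endoplasmic reticulum, and its first intron (chr14:59485117-59486712) had 77.2, 78.6 and 76.9% in the KO-3 libraries, against 32.2, 41.8 and 37.9% in the KO-4 libraries. The groups stood far apart, with a log2 odds difference of 2.54 (SE 0.55, adjusted p = 0.00031). ARHGEF11, a guanine nucleotide exchange factor, had 94.4, 86.96 and 93.8% in the KO-3 libraries, against 40.9, 38.2 and 53.8% in the KO-4 libraries at its intron 38 (chr1:156937497-156938417). Its difference was 3.77 (SE 0.89, adjusted p = 7.5e-06), and the neighbouring intron of the gene was called in the same direction.

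CD44, the hyaluronan receptor whose variable exons are spliced in or skipped as a block, held 9 called introns of 22 tested, 2 higher and 7 lower in KO-3. The intron from the constant exon into the variable region (chr11:35190066-35211245, with exons inside) had levels of 98.8, 95.1 and 98.1% in the KO-3 libraries, against 54.3, 47.4 and 50.4% in the KO-4 libraries. The KO-3 libraries were near full retention and the KO-4 libraries near the middle of the scale, a difference of 5.25 (SE 0.89, adjusted p = 2.4e-15). The longest of these introns, which joins the constant exons across the variable region (chr11:35190066-35214851), was at 15.7 ± 4.06% in KO-3, against 4.07 ± 1.16% in KO-4 (SD, n = 3 each), a difference of 2.22 (SE 0.26, adjusted p = 2.3e-13). Transcripts that splice to an exon inside these 2 introns give no read that joins the flanking exons. The values therefore also move with use of the variable exons. The 7 lower introns lie at or inside the variable region, as the one at chr11:35206244-35208104 with 5.42 ± 0.786% in KO-3, against 9.76 ± 0.616% in KO-4. Spliced reads of the gene were 2.47-fold higher in KO-3, and 5 of its introns overlap introns of another gene name. ESRP1, an epithelial splicing regulator known to promote inclusion of CD44 variable exons, had 1285, 1060.2 and 1203 scaled spliced reads in the KO-3 libraries, against 624, 652 and 832 in the KO-4 libraries. Its reads were 1.69-fold higher in KO-3 without overlap, and a link between the 2 genes was not tested.

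Short, low-level introns also rose. Intron 3 of SERBP1, a 105 nt intron (chr1:67424978-67425082) of a gene for an mRNA- and ribosome-binding protein, had 4.58, 3.52 and 2.96% in the KO-3 libraries, against 0.0478, 0.428 and 0.259% in the KO-4 libraries. The levels are low, but 141 retained reads in KO-3 against 15 in KO-4 stood behind them, and the difference was 3.96 (SE 0.51, adjusted p = 9.9e-19). ZNF384, a zinc finger transcription factor gene, had 5 of 13 introns higher and none lower, with 11.4, 11.1 and 16.6% in the KO-3 libraries, against 2.14, 2.58 and 1.44% in the KO-4 libraries at its intron 7 (chr12:6670839-6673215). Its spliced reads per gene did not pass the test. An intron of PHLDB2, which anchors microtubules at the cell cortex, was at 4.78 ± 0.476% in KO-3, against 0.712 ± 0.414% in KO-4 (SD, n = 3 each). One of MAL2, a protein of apical transport, was at 11.9 ± 3.35% in KO-3, against 1.76 ± 1.03% in KO-4. For CLDN7, a tight junction claudin, and KRT8 the introns named were almost always retained in both clones. The CLDN7 intron (chr17:7262344-7263928) had 98.9, 99.5 and 99.7% in the KO-3 libraries, against 90.5, 89.1 and 94.3% in the KO-4 libraries, a difference of 3.86 (SE 0.76, adjusted p = 1.2e-07). The KRT8 intron had 99.7, 99.7 and 99.6% in the KO-3 libraries, against 97.8, 97.9 and 97.8% in the KO-4 libraries, a difference of 2.77 (SE 0.34, adjusted p = 9.6e-16). Both enclose annotated exons and differ little in percent. SEC31A, a coat protein of vesicles that leave the endoplasmic reticulum, had 4 of 5 introns higher, with 33.3, 15.3 and 16% in the KO-3 libraries, against 3.01, 4.0 and 3.33% in the KO-4 libraries at intron 23, shown above. Its retained reads at that intron summed to 34 in KO-3 and 37 in KO-4, while its spliced reads summed to 63 and 515, so the level moved with the spliced reads.

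Of the 12 introns with the largest fall, 3 enclosed an annotated exon. The first of them by size was intron 2 of MID1, in the 5′ UTR of a ubiquitin ligase gene that acts on microtubules. Its levels were 0.6803, 0 and 0% in the KO-3 libraries, against 90.5, 87.3 and 73.3% in the KO-4 libraries (chrX:10567604-10620289, with an exon inside). It was almost wholly spliced in KO-3 and mostly not in KO-4, a log2 odds difference of -11.13 (SE 1.92, adjusted p = 2.8e-37). HOMER3, a scaffold protein of synapses, had 4 of 5 introns lower in KO-3. Its 350 nt intron 7 (chr19:18931626-18931975) had 0.152, 0.181 and 0% in the KO-3 libraries, against 25.6, 26.3 and 26.2% in the KO-4 libraries, which is 2 retained reads in all of KO-3 against 603 in KO-4. The spliced reads of that intron were nearly alike, 834 in KO-3 against 857 in KO-4. The difference was -8.20 (SE 1.36, adjusted p = 5.2e-47). For STK16, a Golgi kinase gene, intron 4 (168 nt, chr2:219247247-219247414) had 3.03, 4.402 and 0.369% in the KO-3 libraries, against 35.5, 30.9 and 33.6% in the KO-4 libraries. The groups were far apart here too, with a difference of -4.15 (SE 0.41, adjusted p = 2.6e-26). SUN1 encodes an inner nuclear membrane protein, and its intron 10, shown above, had 0.186, 0.362 and 0.252% in the KO-3 libraries, against 10.6, 12.1 and 13.1% in the KO-4 libraries. Its difference was -5.64 (SE 0.95, adjusted p = 8.3e-23), with 3 more introns of the gene lower in KO-3.

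PHB, the mitochondrial scaffold prohibitin, had 0.853, 0.505 and 0.483% in the KO-3 libraries, against 5.53, 4.69 and 4.18% in the KO-4 libraries at its intron 6. This is a small share, but 105 retained reads in KO-3 against 483 in KO-4 gave a difference of -3.03 (SE 0.21, adjusted p = 5.6e-39), while spliced reads of the gene were 1.92-fold higher in KO-3. The retention of intron 10 of ETF1, the translation release factor, was 0.214 ± 0.102% in KO-3, against 1.36 ± 0.458% in KO-4 (SD, n = 3 each). That of intron 10 of PPP3CA, the catalytic subunit of calcineurin, was 0.193 ± 0.07997% in KO-3, against 1.94 ± 0.464% in KO-4. Both were small shares of many reads. CDH3 encodes P-cadherin, a cell adhesion protein, and its first intron, also shown above, was at 0.426 ± 0.274% in KO-3, against 2.97 ± 0.183% in KO-4. For AP1M2, a clathrin adaptor subunit of epithelial cells, the levels were 0.762, 0.521 and 0.0867% in the KO-3 libraries, against 6.37, 2.303 and 1.62% in the KO-4 libraries. One KO-4 library lay well above the other 2, and the call held without it. LAMA2, a laminin chain of basement membranes, had 2.56, 1.72 and 8.57% in the KO-3 libraries, against 17.9, 26.03 and 27.9% in the KO-4 libraries, from 14 retained reads in KO-3 and 46 in KO-4. TPST1, a Golgi sulfotransferase gene, was at 3.34 ± 1.46% in KO-3, against 18.4 ± 3.97% in KO-4. ABHD12, a lipase gene whose intron overlaps another gene, was at 4.802 ± 2.74% in KO-3, against 30.8 ± 4.71% in KO-4. All 24 introns remained called with any 1 library left out, whereas 9 of them were not called by limma on the log2 odds, which called 16 introns higher and 10 lower in all.

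**Figure D2:**
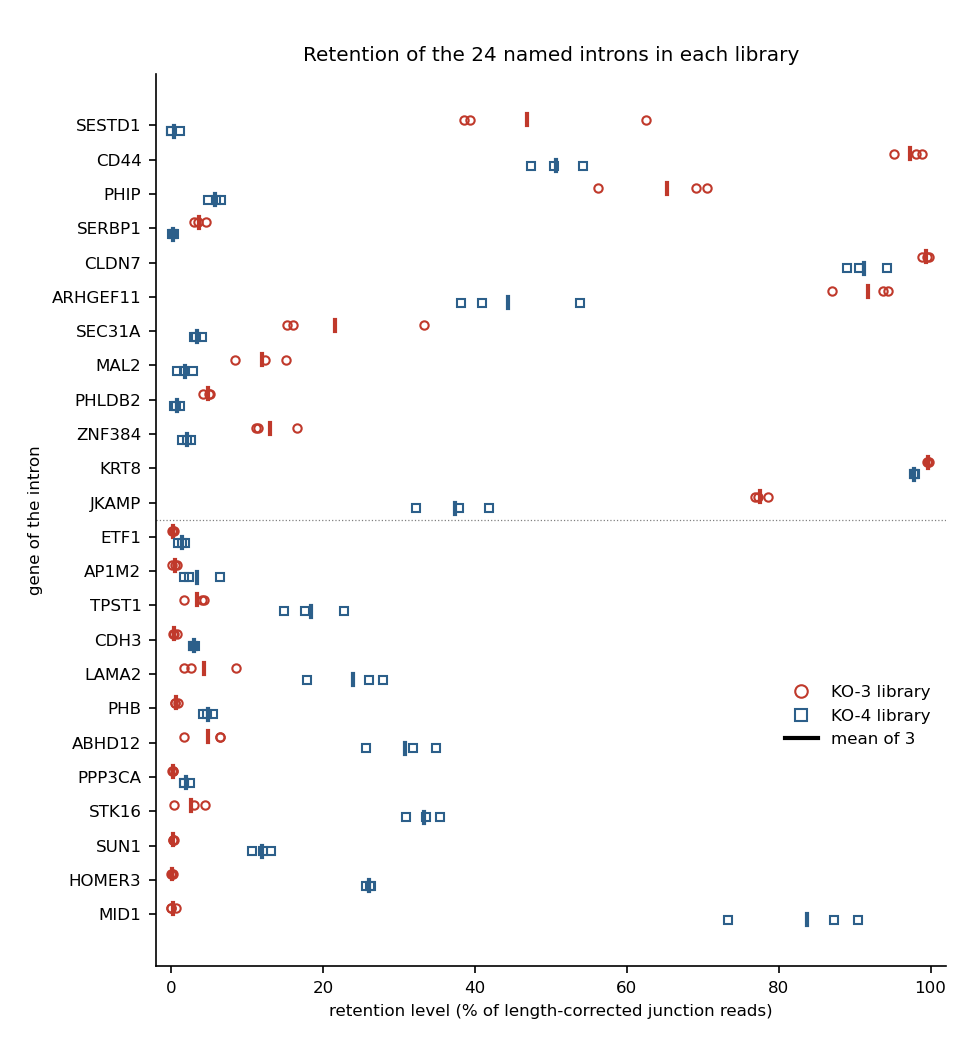
Retention levels in percent are plotted for the 24 introns with the largest differences, KO-3 libraries as circles above KO-4 libraries as squares, with a bar at the mean of 3. The 12 introns above the dotted line are higher in KO-3 and the 12 below it are lower. Only introns whose levels did not overlap between the clones were picked.

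In some genes several introns fell together. IMPDH2, the rate-limiting enzyme of guanine nucleotide synthesis, had 12 of 16 introns lower in KO-3 and none higher. Its intron at chr3:49026067-49026323 was at 34.1 ± 1.48% in KO-3, against 59.97 ± 2.43% in KO-4 (SD, n = 3 each), and that at chr3:49028533-49028757 at 3.26 ± 0.151% in KO-3, against 6.02 ± 0.915% in KO-4. Spliced reads of the gene were 1.91-fold higher in KO-3. GAS5, a noncoding snoRNA host gene, had 7 of 13 introns lower, MMS19, which delivers iron-sulfur clusters, 6 of 20, and SREBF1, a sterol-regulated transcription factor gene, 6 of 20, with none higher in any of the 3. FDPS, farnesyl diphosphate synthase, had 6 lower and 1 higher of 15.

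The class of an intron could be read for introns whose ends are covered by annotated transcripts, allowing 1 mismatch to the U12 consensus over 8 bases at the start and 2 to the branch consensus near the end: 60 members were U12-type and 8600 U2-type. A further 28 met the rule at the start only. The ends of 14773 members, most of them, could not be read, so these have no class. Of the U12-type introns 2 were higher and 2 lower in KO-3 (3.33% each), and of the U2-type introns 110 and 318 (1.28% and 3.70%). The 4 called U12-type introns are shown with the first 8 bases and the best match to the branch site in capitals.
GAK intron 3 start: GTATCCTTtt
GAK intron 3 end: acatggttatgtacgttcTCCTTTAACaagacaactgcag
UFD1 intron 5 start: GTATCTTTtt
UFD1 intron 5 end: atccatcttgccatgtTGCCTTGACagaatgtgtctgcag
EIF4B intron 13 start: GTATGCTTgt
EIF4B intron 13 end: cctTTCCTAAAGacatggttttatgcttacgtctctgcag
E2F4 intron 1 start: ATATCCTCct
E2F4 intron 1 end: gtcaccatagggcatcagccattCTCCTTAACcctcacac
GAK, a kinase of clathrin uncoating, had 14.7, 11.4 and 10.9% in the KO-3 libraries, against 2.38, 4.62 and 4.07% in the KO-4 libraries at chr4:911788-912734, without overlap and with a difference of 1.90 (SE 0.38, adjusted p = 5.9e-05). UFD1, a cofactor of the p97 segregase, was higher in KO-3 at much lower levels, 2.59, 2.24 and 2.02% in the KO-3 libraries, against 1.29, 1.01 and 0.864% in the KO-4 libraries (chr22:19465275-19467872), by 1.13 (SE 0.29, adjusted p = 0.006). EIF4B, a translation initiation factor, was lower at 0.653 ± 0.269% in KO-3, against 1.63 ± 0.413% in KO-4 (SD, n = 3 each, chr12:53039344-53039629). E2F4, a cell cycle repressor gene, opens with AT and closes with AC and was at 2.57 ± 0.108% in KO-3, against 4.88 ± 0.785% in KO-4 (chr16:67193171-67193471). Its call at adjusted p = 0.033 was lost without any 1 of 5 libraries and after centring (adjusted p = 0.10).

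In each library the U2-type median of log2 odds was taken from the U12-type median, which gave 0.26, -0.17 and -0.14 in KO-3, against -0.35, -0.26 and -0.47 in KO-4. This U12-minus-U2 value was higher in every KO-3 library, by 0.34 on average (exact two-sided permutation test p = 0.1, the smallest possible). The U12-type medians themselves overlapped, at -1.65, -2.18 and -2.21 in KO-3, against -2.20, -2.08 and -2.34 in KO-4 (exact two-sided permutation test p = 0.5). The U2-type medians did not, at -1.91, -2.005 and -2.07 in KO-3, against -1.85, -1.82 and -1.86 in KO-4, so lower U2-type values in KO-3 enter the difference. Medians over all member introns averaged -2.59 in KO-3 and -2.45 in KO-4, below those of the U2-type introns. The comparison thus covers only introns whose ends could be read. The KO-3 library listed 1st stood apart from the other 2 in the U12-type median. Without it the U12-minus-U2 difference was 0.21, and both remaining KO-3 medians of U12-type introns lay within the KO-4 range. Of the U12-type introns 36 of 60 had higher log2 odds in KO-3, and of the U2-type introns 3035 of 8600. When every intron of a list of U12 genes stood in for the class, the difference was 0.10, so its size depends on how the class was drawn.

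Spliced reads per gene differed in 2896 of 5917 genes (48.9%) by limma on log2 scaled reads, 1430 higher in KO-3 (24.2%) and 1466 lower (24.8%). Most differences were small, with 45 genes (0.761%) at least 2-fold higher and 152 (2.57%) at least 2-fold lower. Values of the 2 clones did not overlap in 1378 of the higher and 1425 of the lower genes, where 57.1% of all genes tested did not overlap. In a bulk sample, fewer cells that make a transcript and less of it per cell cannot be told apart. These sums count reads across introns that pass the read minimum, so an intron that is retained more also lowers its own share of the sum.

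Among the 15 genes with the largest rise, ACSL5 stood far ahead of the rest. This gene, which activates long-chain fatty acids, had 2759, 2151 and 2310.3 scaled spliced reads in the KO-3 libraries, against 84.1, 99.6 and 145 in the KO-4 libraries. It was 22.3-fold higher in KO-3, a log2 change of 4.48 (SE 0.15, adjusted p = 2.8e-12). S100A14, an epithelial calcium-binding protein, had 5680.4, 4488 and 5252 scaled spliced reads in the KO-3 libraries, against 713, 759 and 1206 in the KO-4 libraries. FXYD3, a regulator of the sodium pump, had 205, 166 and 198 scaled spliced reads in the KO-3 libraries, against 16.6, 43.7 and 66.5 in the KO-4 libraries. S100A14 and FXYD3 were 5.897- and 5.12-fold higher in KO-3. PALLD, an actin-bundling protein, averaged 424 ± 76.6 in KO-3, against 66.3 ± 7.74 in KO-4 (SD, n = 3 each). ABCC2, an exporter of conjugated drugs and bilirubin, averaged 11409 ± 1887 in KO-3, against 3086 ± 370.5 in KO-4. IGF2BP3, an RNA-binding protein of fetal and tumour cells, averaged 1996 ± 195 in KO-3, against 616 ± 25.3 in KO-4. The first of these was read over 1 intron and the other 2 over several. ITPRID2, which interacts with inositol trisphosphate receptors, was the most abundant of the 15 with 23132 ± 2097 in KO-3, against 8904 ± 1076 in KO-4. Reads named OR51B5, AC104389.5 and HBE1, which lie together on chromosome 11, were 6.48-, 3.51- and 2.67-fold higher. All of their introns overlap introns of another gene name, so it is uncertain which gene the reads belong to. The same holds for reads named AC118553.2,MFSD14A (2.69-fold) and for 1 of 2 introns of IQANK1 (2.604-fold). C6orf141, TMEM125 and the pseudogene TEKT4P2 were 4.49-, 2.66- and 2.65-fold higher.

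Among the 15 genes with the largest fall, CAV1, the main protein of caveolae, had 209.9, 225 and 204 scaled spliced reads in the KO-3 libraries, against 1989, 2003 and 2150.5 in the KO-4 libraries. It was 9.595-fold lower in KO-3, a log2 change of -3.26 (SE 0.07, adjusted p = 1.5e-14). Over all its listed introns the log2 change was -2.68. For TUBA1A, an alpha tubulin whose introns overlap another gene name, the values were 1896, 1519 and 1487 scaled spliced reads in the KO-3 libraries, against 8459, 6784 and 6431 in the KO-4 libraries, 4.42-fold lower. RGS2, an inhibitor of G protein signalling, had 438, 517 and 525 scaled spliced reads in the KO-3 libraries, against 2114, 2038 and 1973 in the KO-4 libraries. Lack of overlap between the clones was a condition for naming the genes of largest rise and fall. CYP24A1, the enzyme that inactivates vitamin D, was 5.45-fold lower at 295 ± 114 in KO-3, against 1544 ± 153 in KO-4 (SD, n = 3 each). Of matrix genes, ADAMTS14, which processes procollagen, was 7.64-fold lower, VCAN, the proteoglycan versican, 4.86-fold, and LOXL2, which cross-links collagen, 4.26-fold. ANO1, a calcium-activated chloride channel, was 5.38-fold lower, STK39, a kinase of ion cotransporters, 5.97-fold, APOBEC3F, an antiviral cytidine deaminase, 6.399-fold, and SEC31A 5.85-fold. The transcript AC078993.1 on the X chromosome had 45.99, 58.8 and 89.2 scaled spliced reads in the KO-3 libraries, against 769, 775 and 629.5 in the KO-4 libraries, the deepest fall at 11.5-fold. POPDC3, KLF2 (a transcription factor) and reads named RTEL1-TNFRSF6B,TNFRSF6B fell by 7.27-, 4.28- and 5.39-fold, and in the last case the 2 gene names share the introns.

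**Figure D3:**
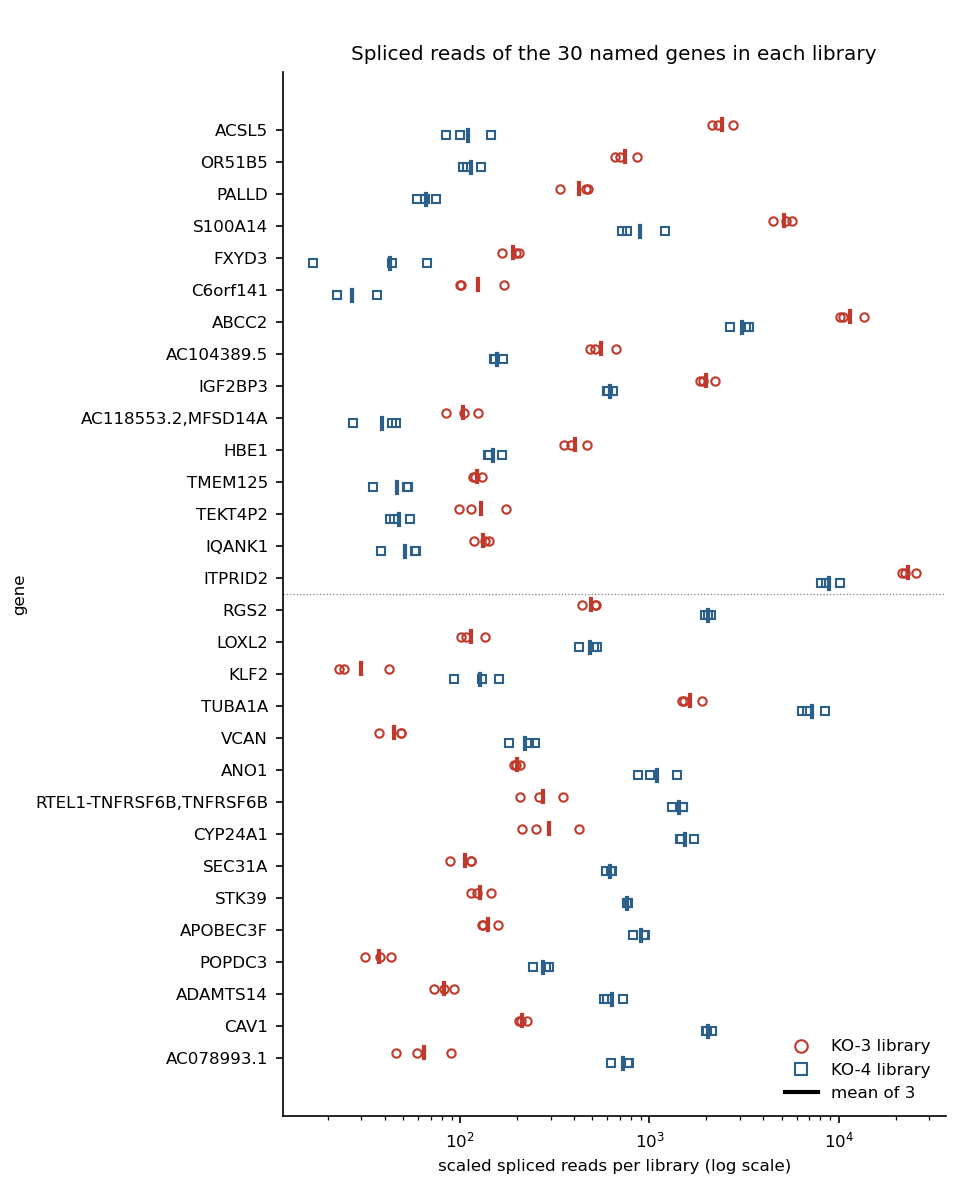
Scaled spliced reads per library (log axis) are plotted for the 15 genes with the largest rise and the 15 with the largest fall in KO-3, KO-3 libraries as circles above KO-4 libraries as squares, with a bar at the mean of 3. The dotted line parts the 2 groups. Only genes whose libraries did not overlap between the clones were picked.

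Genes of the snoRNA and nucleolar machinery had more spliced reads in KO-3. Of 21 snoRNA host genes tested 19 were higher and none lower, with a median log2 change of 0.53, where the median of all genes tested was 0.01. Among all genes tested 24.2% were higher and 24.8% lower. SNHG5 had 2821, 2249 and 2563 scaled spliced reads in the KO-3 libraries, against 1221, 1341 and 1219 in the KO-4 libraries, a 2.01-fold difference. SNHG1, another noncoding host, had 11800, 11132 and 10957 scaled spliced reads in the KO-3 libraries, against 6237, 6774 and 7267 in the KO-4 libraries. ZFAS1 averaged 5324 ± 604 in KO-3, against 3165 ± 188 in KO-4 (SD, n = 3 each). SNHG16 averaged 1912 ± 115 in KO-3, against 1182 ± 25.5 in KO-4, and like the others it did not overlap between the clones. The introns of these hosts were called mostly in the other direction, 27 of 182 lower and 1 higher. GAS5 held 7 of the lower introns, SNHG29 5 and NOP56 4, so many of them lay in a few hosts. Of all introns tested 2.90% were lower and 1.13% higher. An intron of GAS5 (chr1:173866568-173866760) was at 14.6 ± 1.95% in KO-3, against 20.3 ± 1.45% in KO-4.

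Of the genes of the box C/D particle, which methylates RNA with snoRNA guides, and of its assembly factors, 8 of 10 were higher and none lower (median 0.40). The shares among all genes were 24.2% and 24.8%. NOLC1, a nucleolar chaperone of these particles, had 10103, 11167 and 10533 scaled spliced reads in the KO-3 libraries, against 6626, 6207 and 6697 in the KO-4 libraries. FBL, the methyltransferase fibrillarin, had 5001, 4718 and 4783 scaled spliced reads in the KO-3 libraries, against 3351, 3288 and 3437 in the KO-4 libraries. DKC1, the pseudouridine synthase of the sister class, averaged 2950.3 ± 36.1 in KO-3, against 2230.4 ± 44.2 in KO-4. All 3 were higher in each KO-3 library than in any KO-4 library. NOP56, a core protein that is itself a host gene, was 1.35-fold higher and had 4 of 13 introns lower. Its first intron (chr20:2656215-2656400, with an exon inside) had 19.3, 14.7 and 14.6% in the KO-3 libraries, against 33.8, 27.8 and 28.5% in the KO-4 libraries. All 3 KO-3 levels lay below all KO-4 levels, a difference of -1.16 (SE 0.09, adjusted p = 6.3e-28). A later intron (chr20:2657219-2657928) was at 9.06 ± 1.09% in KO-3, against 14.8 ± 0.635% in KO-4, and another (chr20:2656550-2656773) at 7.86 ± 0.984% in KO-3, against 12.5 ± 0.713% in KO-4. Over the list, 6 of 54 introns were lower and none higher, against 2.90% and 1.13% of all introns. That count was 3 without the KO-3 library listed 2nd or either of the KO-4 libraries listed 1st and 2nd.

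Genes of the major spliceosome were higher in 12 of 26 cases and lower in none (median 0.13), by small amounts. Among all genes 24.2% were higher and 24.8% lower. SNRPD2, a core protein of the particles, averaged 4384 ± 93.8 in KO-3, against 3413 ± 19.9 in KO-4 (SD, n = 3 each). SNRPF, another core protein, averaged 1787 ± 107 in KO-3, against 1344 ± 74.5 in KO-4. DHX15, a helicase that takes spliceosomes apart, averaged 2800.1 ± 93.8 in KO-3, against 2341 ± 113 in KO-4. The helpers of branch site recognition included SF3A3, with 1039 ± 36.8 in KO-3, against 865 ± 21.5 in KO-4. Summed over all introns listed for both clones, with no read minimum per intron, 16 of 30 of these genes were higher and 3 lower. For all genes so summed the shares were 25.4% and 26.3%. Of the 94 member introns of these spliceosome genes 3 were lower and 1 higher, near the 2.90% and 1.13% among all introns. SNRNP70, the U1 protein, was less retained at chr19:49101472-49104633, at 7.94 ± 1.89% in KO-3, against 12.1 ± 1.67% in KO-4. Both U2AF2 introns that were called, in a gene that recognizes the 3′ splice site, lost the call without 1 library.

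Of SR protein, hnRNP and kinase genes 11 of 27 were higher and 2 lower (median 0.08), with 7 higher without the KO-3 or the KO-4 library listed 2nd. The shares among all genes were 24.2% and 24.8%. HNRNPA1, an abundant nuclear RNA-binding protein, averaged 102490 ± 9018 in KO-3, against 77507 ± 1804 in KO-4 (SD, n = 3 each). HNRNPA2B1, its close relative, averaged 96985 ± 4011 in KO-3, against 81710 ± 2307 in KO-4. HNRNPC, which binds uridine tracts, averaged 20951 ± 514 in KO-3, against 16582 ± 85.4 in KO-4. These differences are larger than the spread between libraries but well under 2-fold. SRSF5, a splicing enhancer protein, was 1.33-fold higher and at the same time more retained at its intron 6 (chr14:69769252-69770466, with an exon inside). The levels there were 44.99, 41.1 and 45.3% in the KO-3 libraries, against 29.9, 32.9 and 32.1% in the KO-4 libraries, a difference of 0.75 (SE 0.08, adjusted p = 1.7e-14). SRSF2, a relative of SRSF5, moved the other way at intron 4, in the 3′ UTR, with 79.98 ± 2.72% in KO-3, against 85.4 ± 0.9596% in KO-4.

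In genes of nonsense-mediated decay and the exosome, which degrade RNA, 5 of 18 were higher and 4 lower, near the 24.2% and 24.8% among all genes tested. Summed over all such introns, 11 of 26 were higher and 6 lower, where 25.4% of all genes so summed were higher and 26.3% lower. EXOSC7, a subunit of the exosome, averaged 435 ± 27.3 in KO-3, against 313 ± 26.5 in KO-4 (SD, n = 3 each). EXOSC2, another subunit, averaged 1056 ± 73.2 in KO-3, against 804 ± 101 in KO-4. The decay factor SMG9 averaged 559 ± 30.9 in KO-3, against 773 ± 33.4 in KO-4. SMG5, which recruits decapping and deadenylation, averaged 588 ± 41.4 in KO-3, against 774 ± 33.2 in KO-4, so exosome and SMG examples lay on opposite sides. None of the 73 introns of that list was called by the quasi-binomial test.

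Among genes of the minor spliceosome, 2 of 8 tested had more spliced reads in KO-3 and 3 fewer, where 24.2% and 24.8% of all genes did. Without the KO-4 library listed 2nd none of the 8 was lower, and without any other single library 2 were. SNRNP25, a protein of the U11/U12 particle, had 373, 463 and 386 scaled spliced reads in the KO-3 libraries, against 322, 320.2 and 309 in the KO-4 libraries. ZMAT5, another protein of that particle, had 47.99, 52.8 and 59.1 scaled spliced reads in the KO-3 libraries, against 67.5, 104 and 79.6 in the KO-4 libraries. SNRNP25 was higher in KO-3, with a log2 change of 0.35 (SE 0.10, adjusted p = 0.0062), and ZMAT5 lower, with -0.63 (SE 0.19, adjusted p = 0.012). ZMAT5 lost its call without the KO-4 library listed 2nd (limma, adjusted p = 0.083). CCDC84 (also CENATAC, a factor for U12-type introns with AT ends) averaged 513 ± 36 in KO-3, against 621 ± 41.9 in KO-4 (SD, n = 3 each). RNPC3, which binds U12 RNA, averaged 97.2 ± 15.5 in KO-3, against 65.3 ± 7.93 in KO-4. The CCDC84 call was lost without the KO-3 library listed 3rd or the KO-4 library listed 2nd (limma, adjusted p of 0.057 and 0.066). That of RNPC3 was lost without the KO-3 library listed 1st or the KO-4 library listed 2nd (0.059 and 0.055).

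Of the genes known to hold U12-type introns, 12 of 56 were higher and 12 lower, no more than the 24.2% and 24.8% among all genes. Without the KO-3 library listed 3rd 7 were higher, and without the KO-4 library listed 2nd 8. MAPK12, a stress kinase, averaged 1607 ± 55.2 in KO-3, against 2209 ± 134 in KO-4 (SD, n = 3 each). SLC12A4, a potassium chloride cotransporter, averaged 142 ± 11.7 in KO-3, against 257 ± 8.89 in KO-4. IPO5, a nuclear import receptor, averaged 2226 ± 22.3 in KO-3, against 1621 ± 70.3 in KO-4, on the other side. NOL11, of ribosomal RNA transcription and processing, averaged 3484 ± 156 in KO-3, against 2625 ± 131 in KO-4.

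Of 15 genes of the amino acid and ER stress response 11 were higher in KO-3 and none lower (median 0.51), and over all listed introns 17 of 24 were higher and none lower. Among all genes 24.2% were higher and 24.8% lower, and over all listed introns 25.4% and 26.3%. The KO-3 library listed 1st stood above the other 2 in several genes of this list summed over all listed introns. CHAC1, which degrades glutathione, had 461, 270 and 99.4 scaled spliced reads in the KO-3 libraries, against 90.4, 75.7 and 63.4 in the KO-4 libraries. TRIB3, a pseudokinase gene induced by stress, had 1091, 687 and 492 in the KO-3 libraries, against 400, 330 and 390 in the KO-4 libraries. SLC7A11, a cystine transporter, had 238, 79.96 and 82.1 in the KO-3 libraries, against 90.4, 100.01 and 98.6 in the KO-4 libraries and did not pass the test. These 3 were named after their values were seen. The count of higher genes among the 15 was 11 or 12 with any 1 library left out. XBP1, a transcription factor of the unfolded protein response, had 429.9, 389.6 and 395 scaled spliced reads in the KO-3 libraries, against 264, 262 and 279 in the KO-4 libraries. HERPUD1, of ER-associated degradation, averaged 358 ± 17.3 in KO-3, against 241 ± 26.7 in KO-4 (SD, n = 3 each). SHMT2, a mitochondrial serine enzyme, averaged 9006 ± 696 in KO-3, against 7189 ± 356 in KO-4. In all 3 genes the clones did not overlap. ASNS, asparagine synthetase, averaged 86.6 ± 32.2 in KO-3, against 32.7 ± 6.86 in KO-4, and both introns counted overlap another gene name, so part of its reads is uncertain. ATF4, the transcription factor at the centre of this response, was less retained at an intron of its 5′ UTR (chr22:39520752-39521353), at 2.81 ± 0.501% in KO-3, against 4.33 ± 0.294% in KO-4.

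Of 23 cholesterol synthesis genes 13 were lower and 1 higher (median -0.29), where 24.8% of all genes were lower and 24.2% higher. SREBF1, a sterol-regulated transcription factor gene, averaged 8539 ± 517 in KO-3, against 11662 ± 806 in KO-4 (SD, n = 3 each). SREBF2, its relative, averaged 3632 ± 50.8 in KO-3, against 4820.1 ± 272 in KO-4. Both were lower in every KO-3 library. ACAT2, a thiolase at the start of the pathway, averaged 2760.1 ± 89.8 in KO-3, against 4297 ± 546 in KO-4 and was more retained at chr6:159778281-159778658, at 6.603 ± 0.996% in KO-3, against 3.71 ± 0.802% in KO-4. Of 146 introns of this list 16 were lower and 2 higher, against 2.90% and 1.13% of all introns. SREBF1 and FDPS held 6 of the lower introns each, so most of them lay in these genes. An intron of SREBF1 (chr17:17815330-17815859) had 5.26, 5.79 and 4.43% in the KO-3 libraries, against 10.5, 10.3 and 10.7% in the KO-4 libraries, so retention and spliced reads were both lower in KO-3. A second one (chr17:17817458-17817695) was at 9.46 ± 0.5995% in KO-3, against 16.5 ± 0.644% in KO-4. The count of lower introns was 5 without the KO-4 library listed 1st, 7 without the KO-3 library listed 2nd and 9 without the KO-3 library listed 3rd.

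All 3 metallothionein genes tested, which bind zinc and copper, were lower, where 24.8% of all genes were. MT1X had 159.9, 151 and 139 scaled spliced reads in the KO-3 libraries, against 402, 556 and 441 in the KO-4 libraries, a 3.08-fold difference without overlap. MT2A and MT1E were 1.85- and 1.72-fold lower.

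Promoters of these genes are given for 5 of the named members, as genes that moved together and whose promoters hold a motif known from their pathway. Each is the 250 bases before the RefSeq start (GRCh38.p14), with the motif in capitals. The motifs, sought on both strands, were TGATGNAA (amino acid response), CCAAT and CCACG with 9 bases between them (ER stress response), ATCAC and CCAC with 1 base between them (sterol response) and TGCGCNC (metal response).
ASNS, chr7:97872409-97872658 minus: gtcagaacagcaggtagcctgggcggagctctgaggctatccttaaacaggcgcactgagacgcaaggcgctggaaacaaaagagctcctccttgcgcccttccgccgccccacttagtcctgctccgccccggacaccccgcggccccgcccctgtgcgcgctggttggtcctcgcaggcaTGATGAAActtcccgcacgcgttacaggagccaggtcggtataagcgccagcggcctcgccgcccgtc
XBP1, chr22:28800570-28800819 minus: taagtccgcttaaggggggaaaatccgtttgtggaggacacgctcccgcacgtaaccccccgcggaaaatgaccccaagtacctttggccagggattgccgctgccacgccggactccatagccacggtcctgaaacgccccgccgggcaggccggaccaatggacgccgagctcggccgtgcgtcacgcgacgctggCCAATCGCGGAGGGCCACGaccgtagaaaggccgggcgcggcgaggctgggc
SREBF2, chr22:41832855-41833104 plus: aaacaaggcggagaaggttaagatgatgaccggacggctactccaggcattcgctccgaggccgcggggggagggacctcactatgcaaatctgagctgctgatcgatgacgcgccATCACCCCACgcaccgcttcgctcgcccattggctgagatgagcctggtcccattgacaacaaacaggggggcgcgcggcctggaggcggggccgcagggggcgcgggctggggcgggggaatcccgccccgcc
MT1X, chr16:56682220-56682469 plus: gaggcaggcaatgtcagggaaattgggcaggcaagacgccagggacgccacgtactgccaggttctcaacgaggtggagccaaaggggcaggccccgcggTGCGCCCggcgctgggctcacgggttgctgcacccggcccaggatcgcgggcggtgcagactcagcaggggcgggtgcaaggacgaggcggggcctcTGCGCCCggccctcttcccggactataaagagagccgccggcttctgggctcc
MT2A, chr16:56608334-56608583 plus: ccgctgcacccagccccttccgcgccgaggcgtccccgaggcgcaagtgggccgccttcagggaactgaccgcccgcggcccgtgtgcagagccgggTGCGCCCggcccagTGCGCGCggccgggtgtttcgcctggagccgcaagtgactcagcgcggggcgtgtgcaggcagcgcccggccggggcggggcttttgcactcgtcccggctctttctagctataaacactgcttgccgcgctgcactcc
The amino acid motif stood in 2 and the ER stress motif in 3 of the 13 tested genes of their list with a promoter. Of the 35116 promoters searched, which leave out part of the genome, 3.14% and 0.0740% held them. These shares count promoters, whereas the list counts are of genes, which can have more than 1 promoter. The sterol motif stood in 1 of 16 cholesterol genes, against 0.125%, and the metal motif in both metallothionein genes with a promoter, against 16.8%. A match is a run of letters in this window and does not show that a factor binds there.

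Feedback genes of the MAPK pathway, which its activity switches on, were mostly lower in KO-3, 9 of 12 against 1 higher (median -0.64). Among all genes 24.8% were lower and 24.2% higher. FOSL1, an AP-1 transcription factor, had 442, 563 and 556 scaled spliced reads in the KO-3 libraries, against 1389.7, 1352 and 1285 in the KO-4 libraries. EPHA2, a receptor kinase, had 1379.6, 1376 and 1385 scaled spliced reads in the KO-3 libraries, against 4246, 3755 and 3343 in the KO-4 libraries. IER3, an immediate early gene, averaged 1368 ± 121 in KO-3, against 2618 ± 193 in KO-4 (SD, n = 3 each). Each KO-3 value lay below each KO-4 value in all 3. Over all listed introns 11 of 15 feedback genes were lower and 2 higher, where 26.3% and 25.4% of all genes so summed were. EGR1 was higher there, with a log2 change of 1.34 (SE 0.22, limma, adjusted p = 0.00018), and DUSP4 lower, with -0.54. Intron 16 of EPHA2 was more retained, at 5.88 ± 0.957% in KO-3, against 3.105 ± 0.147% in KO-4, a call lost without the KO-3 library listed 1st.

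Of the WNT target genes 3 of 8 were higher and 4 lower (median -0.48), and over all listed introns 3 of 10 and 6. The shares among all genes were 24.2% and 24.8%, and over all listed introns 25.4% and 26.3%. AXIN2, a negative regulator of the pathway, had 179.9, 144 and 174 scaled spliced reads in the KO-3 libraries, against 665, 758 and 559 in the KO-4 libraries, a 3.96-fold fall. NOTUM, a secreted WNT inhibitor, had 92.97, 64.8 and 72.96 scaled spliced reads in the KO-3 libraries, against 313, 262 and 208 in the KO-4 libraries. CCND1, cyclin D1 and a member of the MAPK list as well, averaged 1987 ± 119 in KO-3, against 3968 ± 235 in KO-4 (SD, n = 3 each). These 3 were lower in KO-3, whereas CD44 was higher, as given above.

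Of the p53 targets 5 of 13 were higher and 1 lower, where 24.2% and 24.8% of all genes were. Over all listed introns 13 of 20 were higher and 2 lower, where 25.4% and 26.3% of all genes so summed were. GDF15, a stress cytokine, averaged 1210.4 ± 276 in KO-3, against 578 ± 37.3 in KO-4 (SD, n = 3 each). FDXR, a mitochondrial reductase, averaged 5096 ± 197 in KO-3, against 3302 ± 149 in KO-4. CDKN1A, the p21 inhibitor, averaged 1703 ± 42.3 in KO-3, against 1354 ± 36.8 in KO-4. The one that was lower was PLK2, a polo-like kinase gene, at 4138 ± 195 in KO-3, against 8481 ± 1251 in KO-4.

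Of the interferon response genes 3 of 10 were higher and 4 lower, and over all listed introns 3 of 17 were higher and 8 lower, with the same shares among all genes as above. ISG15, a ubiquitin-like modifier, averaged 639.5 ± 43.8 in KO-3, against 899 ± 74.3 in KO-4 (SD, n = 3 each). IFI6, a survival factor, averaged 165 ± 6.09 in KO-3, against 265 ± 35.9 in KO-4. HLA-B, an antigen-presenting molecule, differed in the other direction, at 652 ± 18.6 in KO-3, against 519 ± 39.96 in KO-4. It belongs to a family of close copies, so reads of one member can be counted for another.

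Epithelial genes were higher in KO-3 in 5 of 8 cases and lower in 2 (median 0.59), against 24.2% and 24.8% of all genes. KRT18, the partner of KRT8, had 42262, 40394 and 42993 scaled spliced reads in the KO-3 libraries, against 24809, 24155 and 25981 in the KO-4 libraries. KRT8 had 83557, 82794 and 87606 scaled spliced reads in the KO-3 libraries, against 57795, 58677 and 61164 in the KO-4 libraries. CLDN7 averaged 1759 ± 103 in KO-3, against 1115 ± 174 in KO-4 (SD, n = 3 each). All 3 were higher in every KO-3 library, and some introns of both keratins overlap other gene names. Genes were named by adjusted p, and the 2 lower ones are not among them. Over all listed introns CLDN4, another claudin, was lower, with a log2 change of -1.24 (SE 0.25, limma, adjusted p = 0.00091). CDH1 and GRHL2 were higher there, with 1.22 and 1.14, and CDX2 and OCLN were not called. A second CLDN7 intron (chr17:7260986-7261820) was less retained, at 2.94 ± 0.212% in KO-3, against 8.19 ± 1.24% in KO-4.

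Of the mesenchymal genes, markers of another cell state, 4 of 24 could be tested, 2 higher and 1 lower. Among all genes 24.2% were higher and 24.8% lower. FN1, fibronectin, had 143, 127 and 132 scaled spliced reads in the KO-3 libraries, against 439, 399 and 311 in the KO-4 libraries. TPM2, a tropomyosin, averaged 5939 ± 282 in KO-3, against 5066 ± 111 in KO-4 (SD, n = 3 each). FN1 was thus lower and TPM2 higher in KO-3. Of 7 TPM2 introns 4 were less retained, as at chr9:35684808-35685268 with 9.99, 10.1 and 11.9% in the KO-3 libraries, against 22.3, 21.2 and 17.2% in the KO-4 libraries. CALD1, caldesmon, averaged 317 ± 6.53 in KO-3, against 327 ± 8.62 in KO-4 and did not pass the test. Over all listed introns, 7 of 13 epithelial genes were higher and 3 lower, and 3 of 10 mesenchymal genes higher and 5 lower, where 25.4% of all genes so summed were higher and 26.3% lower.

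The remaining lists held calls in both directions. In glycolysis and hypoxia genes 9 of 19 were higher and 6 lower, and over all listed introns 13 of 24 and 7. The shares among all genes were 24.2% and 24.8%, and over all listed introns 25.4% and 26.3%. Glycolytic enzymes were among the higher ones by small amounts: LDHA, lactate dehydrogenase, averaged 5339 ± 303 in KO-3, against 4190.1 ± 171 in KO-4 (SD, n = 3 each). TPI1, triosephosphate isomerase, and ENO1, the common enolase, were 1.26- and 1.20-fold higher. These 3 were named after their values were seen, and the 4 with the smallest adjusted p were all lower. PKM, pyruvate kinase, had 45578, 46602 and 47003 scaled spliced reads in the KO-3 libraries, against 81439, 80539 and 78820 in the KO-4 libraries. ENO2, the neuronal enolase, had 598, 583 and 665 scaled spliced reads in the KO-3 libraries, against 1489, 1406 and 1390 in the KO-4 libraries. ADM, a vasodilator peptide, averaged 559 ± 128 in KO-3, against 1128 ± 17.9 in KO-4 (SD, n = 3 each). PFKP, a phosphofructokinase, averaged 742 ± 78.7 in KO-3, against 1089 ± 55.2 in KO-4, and like PKM, ENO2 and ADM it was lower in every KO-3 library.

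In cell cycle genes 8 of 28 were higher, near the 24.2% among all genes, or 13 without the KO-3 library listed 1st, and 4 were lower, where 24.8% of all genes were. MCM4, a subunit of the replication helicase, averaged 3698 ± 376 in KO-3, against 2636 ± 132 in KO-4 (SD, n = 3 each). CCND3, cyclin D3, averaged 189 ± 7.38 in KO-3, against 299 ± 29.6 in KO-4. CCNE2, cyclin E2, averaged 176 ± 31.99 in KO-3, against 303 ± 25.7 in KO-4. The helicase gene was higher and both cyclins were lower in KO-3.

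In repair genes 2 of 15 were higher and 2 lower, where 24.2% and 24.8% of all genes were. Over all listed introns 10 of 23 were higher and 3 lower, where 25.4% and 26.3% of all genes so summed were. MSH6, a mismatch recognition protein, had 1139.7, 1127 and 1245 scaled spliced reads in the KO-3 libraries, against 1844, 1877 and 1934 in the KO-4 libraries. All of its introns overlap another gene name. Its intron 11 (chr2:47806359-47806451) was more retained, at 7.46, 6.51 and 7.83% in the KO-3 libraries, against 2.2, 3.32 and 1.98% in the KO-4 libraries. The checkpoint kinase CHEK2 averaged 353 ± 30.9 in KO-3, against 226 ± 25.2 in KO-4 (SD, n = 3 each). PARP2, a poly(ADP-ribose) polymerase, averaged 1214 ± 37.96 in KO-3, against 937 ± 20.1 in KO-4. RECQL5, a helicase, averaged 298 ± 60.7 in KO-3, against 376 ± 37.1 in KO-4, a call lost without the KO-3 library listed 3rd or either of the KO-4 libraries listed 2nd and 3rd (limma, adjusted p of 0.057 to 0.20).

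Of imprinted and clonally variable genes 1 of 3 was higher and 2 lower, where 24.2% and 24.8% of all genes were. CDKN1C, an imprinted cyclin kinase inhibitor, had 87.97, 66.8 and 94.96 scaled spliced reads in the KO-3 libraries, against 258, 221 and 218 in the KO-4 libraries. PLAGL1, another imprinted gene, averaged 142 ± 29.2 in KO-3, against 85.7 ± 25.1 in KO-4 (SD, n = 3 each). PRAME, a tumour antigen, averaged 111 ± 14.6 in KO-3, against 145 ± 12.1 in KO-4, a call lost without the KO-3 library listed 2nd or 3rd and without the KO-4 library listed 1st or 3rd (limma, adjusted p of 0.074 to 0.12).

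Some introns of these lists were called with all 6 libraries but not without at least 1 of them, with their direction kept. With 1 library left out, the log2 odds difference ranged from -1.746 to -1.085 for PPIL2, from -0.809 to -0.572 for MAPK12 and from -1.224 to -0.926 for NOL11. PPIL2, a cyclophilin on the minor spliceosome list, was at 4.21 ± 1.71% in KO-3, against 10.1 ± 3.05% in KO-4 (SD, n = 3 each). MAPK12 was at 21.1 ± 3.02% in KO-3, against 30.2 ± 1.65% in KO-4 and NOL11 at 2.36 ± 0.254% in KO-3, against 4.95 ± 0.949% in KO-4. HNRNPH1, an hnRNP gene, was more retained, at 18.2 ± 1.86% in KO-3, against 15.2 ± 0.896% in KO-4. SLC3A2, a subunit of amino acid transporters, was at 64.4 ± 7.23% in KO-3, against 73.96 ± 0.343% in KO-4, and FDXR at 5.98 ± 0.144% in KO-3, against 9.66 ± 2.98% in KO-4. Less retained in KO-3 as well were introns of the glycolytic genes ALDOC and GPI, the helicase subunits MCM2 and MCM7 and the repair genes FANCA and RECQL4. TYMS, thymidylate synthase, was more retained, at 2.09 ± 0.195% in KO-3, against 1.22 ± 0.351% in KO-4.

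**Figure D4:**
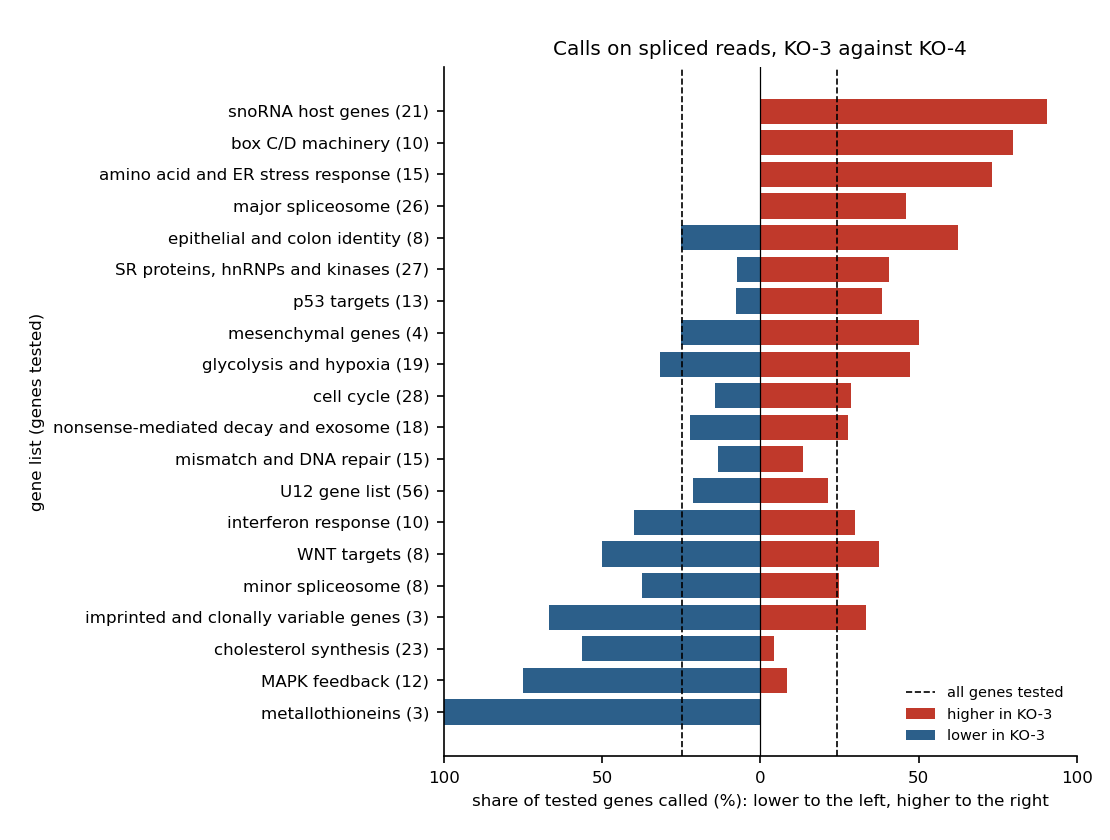
For each of 20 gene lists, the share of its tested genes called higher (right, red) or lower (left, blue) in KO-3 is plotted in percent, with the number tested in brackets. The dashed lines mark the 24.2% higher and 24.8% lower among all 5917 genes. SnoRNA host, box C/D and amino acid response genes reach far past the line on the right and hold no lower gene, and MAPK feedback and cholesterol genes reach past it on the left.

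Spliced reads per gene were also compared by chromosome, where the differences were small and none passed after adjustment. The measure was the median, over the genes of a chromosome, of the log2 deviation of a library from the mean of the 6, and it did not overlap between the clones on 14 of 23 chromosomes, higher in KO-3 on 8 and lower on 6. Of single genes 57.1% did not overlap. On chromosome 4 it was 0.0865, 0.0593 and 0.0225 in the KO-3 libraries, against -0.0423, -0.0818 and -0.0317 in the KO-4 libraries. On chromosome 22 it was -0.072, -0.0524 and -0.0302 in the KO-3 libraries, against 0.0577, 0.0768 and 0.0518 in the KO-4 libraries. The first was higher in KO-3 by 0.11 and the second lower by 0.11. Chromosome 10 was higher by 0.09, and chromosomes 19, 21 and 16 were lower by 0.09, 0.10 and 0.07. Each exact permutation test gave p = 0.1, the smallest possible, and 0.16 after adjustment over the 23 chromosomes. In counts of called genes, chromosome 4 had 56 higher and 19 lower of 158, chromosome 10 had 70 and 42 of 210, chromosome 19 had 74 and 168 of 491 and chromosome 22 had 27 and 70 of 178. Among all genes 24.2% were higher and 24.8% lower. Named genes of chromosome 10 lay on both sides, ACSL5 and ABCC2 higher and ADAMTS14 and PFKP lower.

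**Figure D5:**
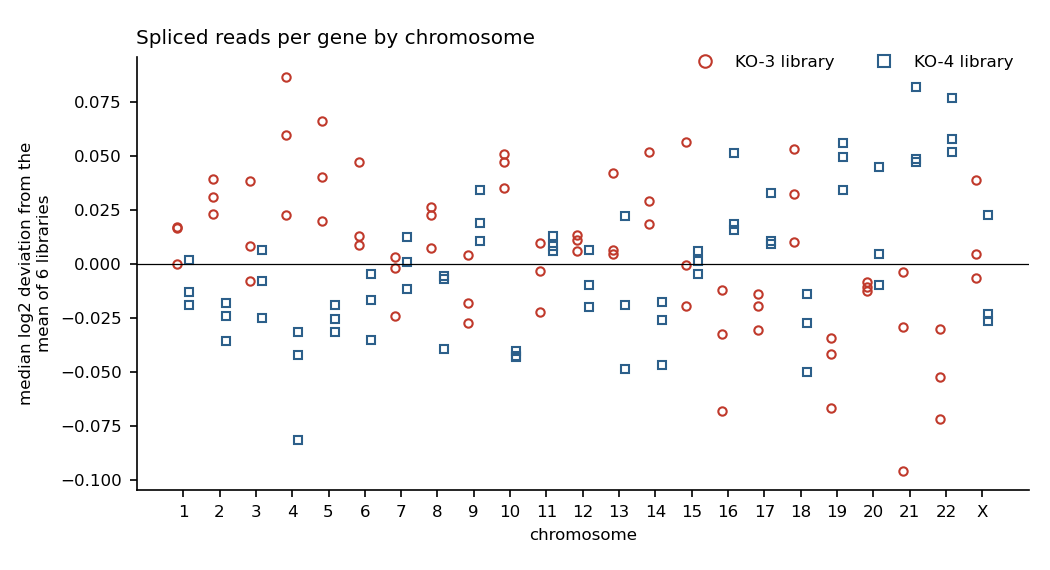
The median log2 deviation of spliced reads per gene from the mean of the 6 libraries is plotted for each chromosome, KO-3 libraries as circles on the left and KO-4 libraries as squares on the right. The circles lie above the squares on chromosomes 2, 4 and 10 and below them on chromosomes 16, 19 and 22.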

How the data were processed

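Poly(A) RNA of HCT116 clones was sequenced from 3 independent experiments per clone. The submitters' processing notes name cutadapt 2.0, STAR 2.7.1a and the build hg38, and the program that counted junction reads is not given in the sources used here. Per the file headers, the deposited tables hold, for each intron, lists of retained and spliced junction read counts, effective lengths and retention levels as a fraction. The deposited p-values and FDR values compare each clone with the wild type and were made by the authors; they were not used. Each listed intron had at least 20 junction reads per library.

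The members and lists were chosen with earlier results of these data known. Introns of both tables were matched on chromosome, start, end and strand. Retention was tested per intron with a quasi-binomial model of the retained and spliced read counts. Its dispersion was moderated with limma 3.58.1 (squeezeVar, R 4.3.3) and held at 1 or above. Effective lengths entered the retention levels and not this test or the log2 odds. Spliced reads per gene were scaled by the median ratio, and log2(reads + 0.5) was tested with limma with a trend, both with Benjamini-Hochberg adjustment and a threshold of 0.05. A count-based quasi-likelihood test on TMM-scaled reads had been planned for genes, and limma was used in its place. Scaled spliced reads are reads divided by the library's size factor. Fold changes are on the log2(reads + 0.5) scale, which understates changes of low genes. The libraries of a list carry no replicate number and are called by their place in it. Nothing beyond the word independent says how the experiments were separated, so p-values measure the spread between these libraries. For retention, the dispersion of each intron was drawn strongly toward a trend over all introns (258.6 prior degrees of freedom). The dispersions used lay between 1.586 and 2.266, so a retention p-value rests mostly on the spread pooled over introns and little on the intron's own.

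On simulated data the retention test recovered 26% of introns changed 2-fold and 87% of those changed 4-fold (23461 introns, 8 unchanged ones called). The gene test recovered 83% of genes changed 1.41-fold and 100% of those changed 2-fold (5917 genes, 9 unchanged ones called). The simulated spread was taken from the fits of the same tests, so these counts cannot show whether the fitted spread is right. Intron classes were read from GENCODE 29 transcripts, searching the last 40 bases for the branch site; promoters came from RefSeq. Named were the 12 introns with the largest difference in each direction (1 per gene) and the 15 genes in each direction among those called and without overlap, and up to 4 genes and 3 introns of each list by adjusted p. IMPDH2 and the other genes with several called introns were named after their values were seen. A few genes that this rule names are not reported here.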

Additional observations from a re-analysis of the deposited data

How the results depend on the processing

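Among introns, the 266 higher and 680 lower in KO-3 came to 120 and 345 with at least 50 reads of each kind, and to 124 and 281 at an adjusted p of 0.01. They came to 438 and 313 with each library centred on its median intron, to 16 and 10 with limma on log2 odds, and to 60 and 108 with limma with a trend on retained reads (chosen after seeing the data). With 1 library left out, they ranged from 135 to 240 and from 353 to 588. No filter gave 203 and 469. Among genes, the 1430 higher and 1466 lower came to 843 and 844 with at least 500 reads, to 2543 and 2632 over all introns (10001 genes), and to 45 and 152 with a fold of at least 2. With 1 library left out, the genes ranged from 1184 to 1426 and from 1253 to 1498, and TMM scaling gave 1381 and 1496. The U12-type difference of 0.34 was 0.103 over every intron of listed U12 genes. Of 1096 alternative values of 82 named introns 160 lost the call, and of 1436 values of 106 named genes 74 did; no called intron or gene changed sign. The split of intron calls did turn, to more higher than lower ones, with centring and with limma on log2 odds, and an intron of CDKN1C that was not called had 0.66 without the KO-3 library listed 1st, against -0.62 with all 6. The causes were not tested. No paired analysis was possible because the deposited lists carry no replicate numbers, so a replicate block could not be fitted. The planned count-model tests were not run. A quasi-Poisson test of the genes (not planned) gave 1440 higher and 1467 lower, and limma voom (not planned) 1439 and 1471. In simulated data 26% of 2-fold changes in retention were recovered, so an intron with no call can still differ by that much.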

Other observations

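Ribosomal protein genes, chosen as a group after their values were seen, had more spliced reads in KO-3. Of 81 tested 80 were higher and none lower, with a median log2 change of 0.63, where 24.2% of all genes were higher. RPL12, of the large subunit, had 88519, 77131 and 81252 scaled spliced reads in the KO-3 libraries, against 40566, 41697 and 43558 in the KO-4 libraries, the largest change of the group. RPL10 averaged 60442 ± 6734 in KO-3, against 45842 ± 1462 in KO-4 (SD, n = 3 each). RPL26L1, a copy of another ribosomal protein gene, averaged 211 ± 3.15 in KO-3, against 208 ± 8.04 in KO-4 and was the one that did not pass the test. Of their 419 introns 46 were lower and 4 higher, with a median log2 odds difference of -0.25, against -0.15 over all introns. Among all introns tested 2.90% were lower and 1.13% higher. Many ribosomal protein genes have processed copies in the genome and several host snoRNAs, and the part of either in these counts was not tested.

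Some genes had introns listed for 1 clone only, and their values in the other clone were not analysed here, so no fold is given. For KO-3, PKIB, an inhibitor of protein kinase A, had 1313, 1250 and 1125 spliced reads, and DPP4, a cell surface peptidase of intestinal epithelium, had 808, 750 and 844. For KO-4, COL13A1, a transmembrane collagen, had 4185, 3635 and 2317 spliced reads, SPARC, a matrix protein, had 2472, 1492 and 1053, and VIM, the mesenchymal filament protein vimentin, had 866, 947 and 700. Of 24 mesenchymal genes 0 were listed for KO-3 only and 4 for KO-4 only, 1 of these (ZEB1) with 2 spliced reads in all. Of all gene names, 159 were listed for KO-3 only and 424 for KO-4 only. Of the epithelial genes 0 were listed for 1 clone only.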
